A study of Mus musculus with 8 samples.

Results

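Laminin-111, collagen IV and their partners make up the basement membrane, the thin sheet of matrix under epithelia. The genes described here encode the 3 chains of laminin-111 (Lama1, Lamb1 and Lamc1), the chains of the common collagen IV trimer (Col4a1 and Col4a2), the linkers nidogen 1 and 2 (Nid1 and Nid2), the proteoglycan perlecan (Hspg2), the collagen-binding glycoprotein SPARC (Sparc) and a catalytic subunit of collagen prolyl 4-hydroxylase (P4ha2). They were chosen by symbol, 10 genes of the 43346 listed in the deposited count files, and each was found once by its Ensembl identifier and passed the filter on low counts. Expression was measured in 8 libraries of total RNA from mouse embryonic stem cells of a mixed 129 and C57BL/6 background, cultured on gelatin in medium with serum and LIF. Every group carries Cre-ERT2 and BirA-V5 at the Rosa26 locus. The parental line with no further change is called wild type, the TRIM71-/- line is the knockout, the line homozygous for the mutated 3'UTR of Mbnl1 is the mutant, and the line with a stably transfected MBNL1::T2A::Puromycin construct is the overexpression line. Each group has 2 libraries. The labels name neither clones nor separate cultures, so the p-values rest on the spread between libraries alone, which may be technical, and differences between cell lines that are not due to the genotype cannot be told apart from it.

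Laminin-111 is the laminin of the earliest embryonic basement membranes. Its alpha, beta and gamma chains join as a coiled coil in the endoplasmic reticulum, beta and gamma first, and the alpha chain is needed for the trimer to be secreted. Outside the cell, laminin polymerizes on the surface through integrins and dystroglycan, collagen IV forms a second network that is crosslinked covalently, and nidogens and perlecan bridge the layers. Mouse embryonic stem cells transcribe many of these genes at a low or moderate level, and the primitive endoderm and its parietal derivative make them in bulk for the first basement membranes of the conceptus.

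Total counts were 75056306 to 86508533 per library. Levels are given as CPM, counts divided by library size after TMM scaling, which corrects library totals for differences in composition. Trim71 had 630 and 628 CPM in wild type against 101 and 105 in the knockout, and Mbnl1 had 25.9 and 26.1 CPM in wild type against 193 and 195 in overexpression. Mbnl1 was also higher in the knockout, at 48.8 and 50.9 CPM. In the mutant it was near wild type, at 28.6 and 27.4 CPM, so its level does not check the mutant label. The 8 embryonic stem cell markers summed to 4206 and 4207 CPM (wild type), 5331 and 5353 (knockout), 4780 and 4770 (mutant) and 4972 and 5023 (overexpression). Gm26917, a locus that resembles ribosomal RNA, took 4.46% of the counts in wild-type replicate 1 and 2.00 to 2.72% in the other libraries.

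Per kilobase of annotated exon, the 10 transcripts spanned a wide range in wild type. Nid2 was highest at 83.3 CPM per kb and Lamc1 next at 78.6, followed by Sparc at 49.7. Col4a1 (19.9), Nid1 (19.0), Hspg2 (17.1), Lama1 (15.5) and Lamb1 (14.7 CPM per kb) lay close together. Col4a2 stood at 8.25 and P4ha2 at 1.92 CPM per kb. The transcripts of the laminin-111 chains were therefore far from equal: Lama1 stood at 0.196 to 0.199 and Lamb1 at 0.181 to 0.193 of the Lamc1 level per kb in the wild-type libraries. Of the other laminin chains, Lama5, the alpha chain of laminin-511, had 30.4 CPM per kb in wild type, above Lama1, whereas Lamb2 had 6.53. Of the other collagen IV chains, Col4a5 stood at 0.46 CPM and Col4a3, Col4a4 and Col4a6 were too low to be tested.

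Each altered line was compared with wild type, which shares the wild-type libraries among these 3 comparisons, and the altered lines were compared with one another. edgeR's quasi-likelihood test was used, with Benjamini-Hochberg adjustment over all 18055 tested genes, and a gene was called at an adjusted p under 0.05. In the knockout 7 of the 10 genes were called, where 44.8% of all tested genes were. Of these, 6 were lower (Lama1, Lamb1, Lamc1, Nid2, Sparc and P4ha2), beside 20.7% of all tested genes, and Nid1 was higher, beside 24.1%. In the mutant 6 were called, against 15.5% of all tested genes. There 5 were higher (Lama1, Lamb1, Lamc1, Nid1 and Sparc), beside 8.02% of all tested genes, and Nid2 was lower, beside 7.5%. In overexpression 4 were called, a smaller share than the 54.8% of all tested genes. Lama1, Hspg2 and Sparc were higher, beside 27.7% of all tested genes, and Lamb1 was lower, beside 27.1%. The median log2 change of the 10 genes was -0.21 (knockout), 0.23 (mutant) and -0.02 (overexpression), beside medians of -0.005, -0.006 and -0.010 over all tested genes. Lama1, Lamb1, Lamc1 and Sparc fell in the knockout and rose in the mutant, whereas Nid2 fell and Nid1 rose in both.

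The altered lines were also compared directly with one another. Between knockout and mutant 7 of the 10 genes were called, all 7 lower in the knockout (45.5% of all tested genes called, 21.1% lower). Between overexpression and mutant 6 were called, 4 lower and 2 higher in overexpression (52% of all tested genes called, 25.2% lower and 26.8% higher). Between knockout and overexpression all 10 were called, 7 lower and 3 higher in the knockout (54.8% of all tested genes called, 27.3% lower and 27.5% higher), and this count was 6 without knockout replicate 1.

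**Figure D1:**
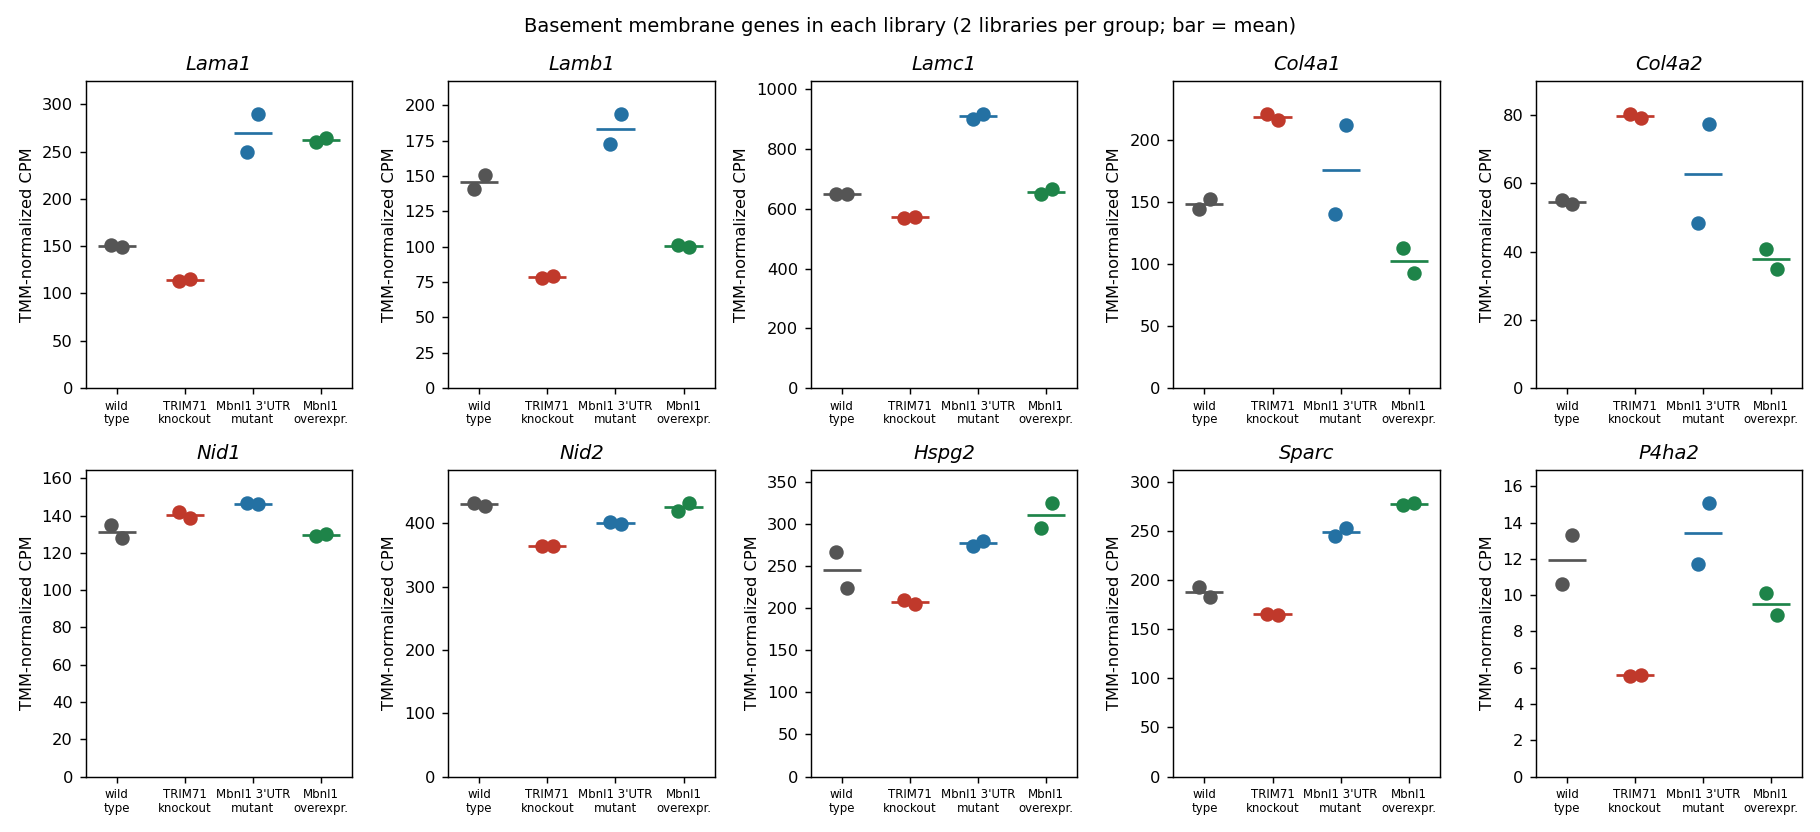
Level of each of the 10 genes (TMM-normalized CPM, axis from 0) in the 8 libraries, by group; points are libraries and bars are means of 2. Lama1 is high in mutant and overexpression, Lamb1 is low in knockout and overexpression, and the mutant libraries of Col4a1 (140 and 212 CPM) and Col4a2 lie far apart.

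**Figure D2:**
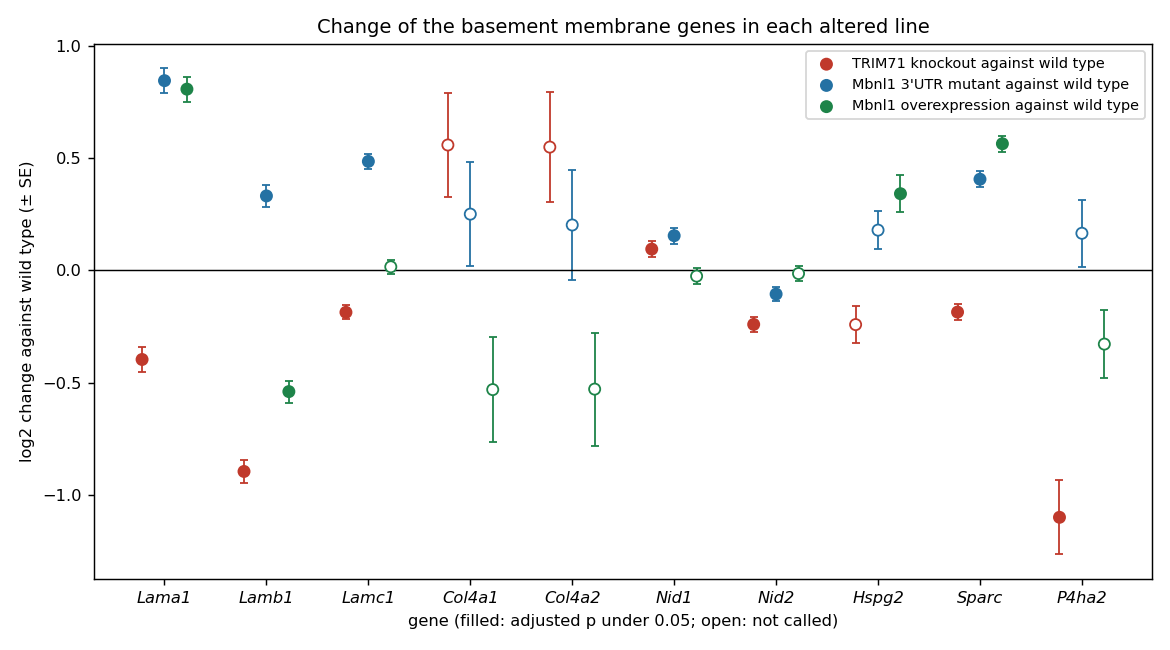
Log2 change against wild type with its standard error for each gene in the 3 altered lines; filled points passed an adjusted p of 0.05. The collagen IV genes carry the widest error bars, and Lamb1 and P4ha2 have the lowest values in the knockout.

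The laminin-111 chains all fell in the knockout and all rose in the mutant, whereas in overexpression Lama1 rose, Lamb1 fell and Lamc1 was not called. Lama1 (ENSMUSG00000032796, mm10 chr17:67697259-67822647, plus strand), the alpha chain that carries the main receptor-binding domains, had 151 and 149 CPM in the wild-type libraries, against 113 and 115 (knockout), 250 and 290 (mutant) and 260 and 265 (overexpression). The knockout libraries were the lowest and did not overlap wild type, while mutant and overexpression were both high and overlapped each other. Lama1 rose 1.80-fold in the mutant (log2 change 0.84, SE 0.055, adjusted p = 9.97e-07, edgeR) and 1.75-fold in overexpression (0.81, SE 0.055, adjusted p = 1.12e-07), and fell 1.32-fold in the knockout (log2 change -0.40, SE 0.055, adjusted p = 9.89e-05). Overexpression and mutant differed by -0.04 (SE 0.054, adjusted p = 0.593). The difference was -0.14 without mutant replicate 1 and 0.07 without mutant replicate 2.

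Lamb1 (ENSMUSG00000002900, chr12:31265234-31329644, plus strand), the beta chain, had 141 and 151 CPM in the wild-type libraries, against 77.6 and 79.1 (knockout), 173 and 194 (mutant) and 101 and 99.7 (overexpression). No group overlapped another, in the order knockout, overexpression, wild type, mutant, and each of the 6 comparisons passed. Lamb1 fell 1.86-fold in the knockout (log2 change -0.90, SE 0.050, adjusted p = 2.99e-09, edgeR) and 1.45-fold in overexpression (-0.54, SE 0.049, adjusted p = 2.70e-07), and rose 1.26-fold in the mutant (0.33, SE 0.049, adjusted p = 0.000268). It was therefore lower in overexpression, where Lama1 was higher.

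Lamc1 (ENSMUSG00000026478, chr1:153218922-153332786, minus strand), the gamma chain of most laminins, had 651 and 650 CPM in the wild-type libraries, against 569 and 573 (knockout), 902 and 918 (mutant) and 648 and 668 (overexpression). The mutant stood apart above, the knockout slightly below, and overexpression straddled the wild-type values. Lamc1 rose 1.40-fold in the mutant (log2 change 0.48, SE 0.032, adjusted p = 1.01e-07, edgeR) and fell 1.14-fold in the knockout (-0.19, SE 0.032, adjusted p = 0.000189). In overexpression the change was 0.02 (SE 0.032, adjusted p = 0.703). Of the 24 comparisons of Lama1, Lamb1, Lamc1 and Sparc, 22 were called, and all 22 calls held under each of the 16 alternative settings run.

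Ratios per kb between chains do not depend on library scaling. Lama1 over Lamb1 was 1.10 and 1.01 in the wild-type libraries, 1.49 and 1.49 (knockout), 1.48 and 1.53 (mutant) and 2.65 and 2.73 (overexpression). Knockout and mutant had nearly the same ratio although Lamb1 was 2.34-fold lower in the knockout than in the mutant (adjusted p = 9.25e-11, edgeR). Lamb1 over Lamc1 was 0.181 and 0.193 in wild type, 0.160 and 0.176 in the mutant, 0.130 and 0.125 in overexpression and 0.114 and 0.115 in the knockout. All 3 altered lines thus had less Lamb1 per Lamc1 transcript than wild type in every library. No test of a ratio was made.

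**Figure D3:**
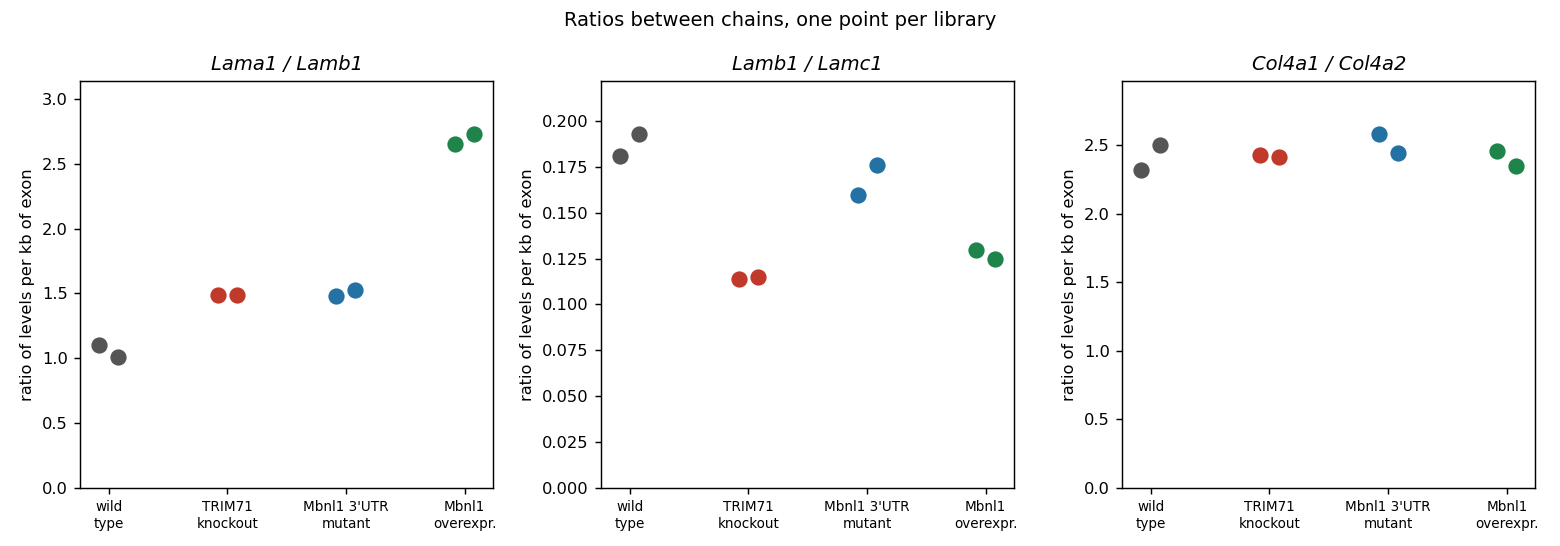
Ratio of levels per kb of exon in each library (axes from 0), for Lama1 over Lamb1, Lamb1 over Lamc1 and Col4a1 over Col4a2. Lama1 over Lamb1 runs from 1.01 in wild type to 2.73 in overexpression, while Col4a1 over Col4a2 stays between 2.32 and 2.58.

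The collagen IV genes kept step with each other more closely than any other pair of the 10 genes. Col4a1 (ENSMUSG00000031502, chr8:11198423-11312826, minus strand) and Col4a2 (ENSMUSG00000031503, chr8:11312805-11449287, plus strand) encode the alpha1 and alpha2 chains, which assemble in a trimer of alpha1, alpha1 and alpha2. They lie head to head, and their annotated first exons overlap by 22 bases on opposite strands. Because both start within the same stretch, the GC box and CCAAT matches of both windows are shown, from the RefSeq promoter windows of GRCm38.p6 (250 bases before to 50 after the start), each 5′ to 3′ on the strand of its gene with the match in capitals.
Col4a1, GC box (GGGCGG on the opposite strand), chr8:11312804-11312825, minus strand: tggagacgCCGCCCgcgcactg
Col4a2, the same GC box, chr8:11312804-11312825, plus strand: cagtgcgcGGGCGGcgtctcca
Col4a2, another GC box (GGGCGG on the opposite strand), chr8:11312749-11312770, plus strand: tgagcgcgCCGCCCgaggagct
Col4a2, most upstream GC box, chr8:11312605-11312626, plus strand: cgcgcccgGGGCGGcaggggac
Col4a2, CCAAT box, chr8:11312765-11312785, plus strand: ggagctccCCAATttgttggc
Col4a1, CCAAT box (on the opposite strand), chr8:11312959-11312979, minus strand: tgcccgggATTGGcgagccaa
The first 2 lines are the complementary strands of 1 stretch, which lies within 22 bases of both starts. GGGCGG was searched on both strands and found in 6 of the 7 members with a RefSeq window (Lamb1, Col4a1, Col4a2, Nid1, Hspg2 and P4ha2), beside 35.7% of all 32851 windows of this length. CCAAT was found in 4 of 7 (Lamb1, Col4a1, Col4a2 and Nid1), beside 37.4% of all windows. TATAAA and AGATAA, searched alike, were found in 0 of 7, beside 13.6% and 11.2% of all windows. Lama1, Lamc1 and Nid2 were not matched. A match is a description of letters and not a site of binding.

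Col4a1 had 144 and 152 CPM in the wild-type libraries, against 221 and 216 (knockout), 140 and 212 (mutant) and 113 and 92.4 (overexpression). Col4a2 had 55.2 and 53.9 CPM in the wild-type libraries, against 80.4 and 79.3 (knockout), 48.3 and 77.3 (mutant) and 40.7 and 35.0 (overexpression). For both genes the knockout libraries were above wild type and the overexpression libraries below, with no overlap, whereas 1 mutant library lay below wild type and the other near the knockout. The Col4a1 to Col4a2 ratio per kb stayed at 2.32 to 2.58 in all 8 libraries, the mutant pair included (2.58 and 2.44). Measured as the root mean square difference of log2 CPM over the 8 libraries, each gene centred on its own mean, the pair differed by 0.045. Among 10108 tested genes of at least 5 CPM, Col4a2 was the closest to Col4a1 and Col4a1 the closest to Col4a2.

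In the edgeR fit of all groups, the only comparison of collagen IV that passed was knockout against overexpression. There Col4a1 was 2.13-fold higher in the knockout (log2 difference 1.09, SE 0.232, adjusted p = 0.0179, edgeR) and Col4a2 2.11-fold higher (1.08, SE 0.249, adjusted p = 0.0230). Leaving out any 1 of the knockout or overexpression libraries ended both calls (adjusted p = 0.0569 to 0.0924 for Col4a1 and 0.0805 to 0.114 for Col4a2), and leaving out either wild-type library ended that of Col4a2 (0.0542 and 0.0541). Against wild type, Col4a1 had a log2 change of 0.56 in the knockout (SE 0.230, adjusted p = 0.127) and -0.53 in overexpression (SE 0.232, adjusted p = 0.128), and Col4a2 had 0.55 (SE 0.245, adjusted p = 0.151) and -0.53 (SE 0.251, adjusted p = 0.154). With DESeq2 the knockout change of Col4a1 passed (0.56, adjusted p = 0.0420).

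The standard errors of these genes are several times those of the laminins. The fit estimates 1 spread per gene over all groups, and the mutant libraries differed by 0.60 (Col4a1) and 0.68 (Col4a2) on the log2 scale. The wild-type libraries differed by 0.07 and 0.04 and the knockout libraries by 0.03 and 0.02. With 1 mutant library left out, Col4a1 stayed at 0.56 in the knockout and -0.53 in overexpression, and Col4a2 at 0.55 and -0.53. The mutant then adds nothing to the spread, so p-values of these fits are not given here. With only the 2 groups compared, Col4a1 and Col4a2 passed in the knockout (adjusted p = 5.38e-08 and 7.92e-08, edgeR). They also passed in overexpression (adjusted p = 0.0343 and 2.25e-05). Those fits likewise leave the gap between the mutant libraries out of the spread. In the mutant itself the direction of both genes rests on 1 library. Without mutant replicate 2 the log2 change was -0.08 for Col4a1 and -0.18 for Col4a2, and without replicate 1 Col4a2 stood at 0.50. Without mutant replicate 2 the knockout was above the mutant for both genes (Col4a1 0.64 and Col4a2 0.73). Without mutant replicate 1 these differences were 0.04 and 0.05. Overexpression against mutant missed the threshold for Col4a1 (-0.78, adjusted p = 0.0503) and Col4a2 (-0.73, adjusted p = 0.0735). With DESeq2 both passed there (adjusted p = 0.00211 and 0.00778). Without mutant replicate 1 these differences were -1.05 and -1.03, and without replicate 2 that of Col4a2 was -0.35.

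The collagen IV and Lamc1 transcripts also share a sequence in their 3' untranslated regions. The miR-29 family is known as a repressor of collagens and other matrix genes in many tissues, and its members share the seed AGCACCA (bases 2 to 8, in capitals in the RefSeq mature sequences).
mmu-miR-29a-3p: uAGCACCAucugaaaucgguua
mmu-miR-29b-3p: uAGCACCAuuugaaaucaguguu
mmu-miR-29c-3p: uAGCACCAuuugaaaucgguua
The seed complement TGGTGCT was searched on the transcript strand in the longest annotated 3' untranslated region of each gene (GENCODE M21). It occurred once in Col4a1 (chr8:11199762-11199768), in 2 places in Col4a2 (chr8:11448359-11448365 and chr8:11448530-11448536) and once in Lamc1 (chr1:153220069-153220075), and in 0 places in the other 7 genes. The matches are in capitals.
Col4a1, minus strand: gccaccgtcacaacaTGGTGCTac
Col4a2, plus strand: gtgggaaggccacgtTGGTGCTta
Col4a2, plus strand: ccaccacacccagctTGGTGCTta
Lamc1, minus strand: tattatctgacacacTGGTGCTat
Of 14498 tested genes with such a region 15.1% held the heptamer, and among genes whose region was within 25% of the same length the share was 13.2% for Col4a1, 10.3% for Col4a2 and 23.7% for Lamc1. Mature miRNAs were not measured in these libraries.

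The largest change of either nidogen against wild type was the 1.18-fold fall of Nid2 in the knockout. Nidogens bind the laminin gamma1 chain and collagen IV and so tie the networks together. Nid2 (ENSMUSG00000021806, chr14:19751265-19811787, plus strand) had 433 and 428 CPM in the wild-type libraries, against 364 and 365 (knockout), 402 and 399 (mutant) and 420 and 433 (overexpression). Knockout and mutant lay below wild type, and overexpression overlapped it. Nid2 fell 1.18-fold in the knockout (log2 change -0.24, SE 0.032, adjusted p = 1.90e-05, edgeR), and its log2 change in overexpression was -0.01 (SE 0.032, adjusted p = 0.73). The fall in the mutant was 1.08-fold (-0.11, SE 0.032, adjusted p = 0.0352). That call was lost in 12 of 16 alternatives, among them all 8 that left out 1 library (adjusted p = 0.0558 to 0.165). Nid2 was higher in overexpression than in the mutant (0.09, adjusted p = 0.0253), which was lost without knockout replicate 1 (0.0654) or 2 (0.0597), mutant replicate 2 (0.056) or overexpression replicate 2 (0.192). Part of Nid2, 8.45% of its exon length, overlaps exons of Rtraf on the other strand.

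Nid1 (ENSMUSG00000005397, chr13:13437551-13512269, plus strand) had 135 and 128 CPM in the wild-type libraries, against 142 and 139 (knockout), 147 and 146 (mutant) and 129 and 130 (overexpression). The mutant had the highest values, and all 4 groups lay within a narrow band. Nid1 rose 1.11-fold in the mutant (log2 change 0.15, SE 0.036, adjusted p = 0.00826, edgeR), which did not pass without wild-type replicate 2 (0.12, adjusted p = 0.0827). The rise in the knockout was 1.07-fold (0.09, SE 0.036, adjusted p = 0.0437) and was lost in 7 of 16 alternatives. These included leaving out wild-type replicate 2 (0.06, adjusted p = 0.301), knockout replicate 1 (0.09, adjusted p = 0.211) or replicate 2 (0.11, adjusted p = 0.107), or overexpression replicate 2 (0.10, adjusted p = 0.0628). The difference between knockout and overexpression, 0.12 (adjusted p = 0.0101), was lost without knockout replicate 1 (adjusted p = 0.0902), overexpression replicate 1 (0.0598) or overexpression replicate 2 (0.0541). The Nid1 to Nid2 ratio per kb was 0.233 and 0.223 in wild type, 0.229 and 0.223 in overexpression, 0.272 and 0.274 in the mutant and 0.291 and 0.285 in the knockout.

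Hspg2 (ENSMUSG00000028763, chr4:137468769-137570630, plus strand), which encodes the large heparan sulfate proteoglycan perlecan, had 266 and 224 CPM in the wild-type libraries, against 209 and 205 (knockout), 274 and 280 (mutant) and 295 and 325 (overexpression). The wild-type libraries differed by 0.25 on the log2 scale, the widest wild-type gap among these genes after P4ha2 (0.32). Hspg2 rose 1.27-fold in overexpression (log2 change 0.34, SE 0.083, adjusted p = 0.0117, edgeR). That call was lost in 3 of 16 alternatives. These were leaving out mutant replicate 1, leaving out mutant replicate 2, and fitting only the 2 groups compared (0.35, adjusted p = 0.0772). The rise was 0.47 without wild-type replicate 1 and 0.22 without wild-type replicate 2. The knockout value of -0.24 (SE 0.083) missed the threshold (adjusted p = 0.0542). It was -0.11 without wild-type replicate 1 and -0.36 without the other wild-type library. The mutant value was 0.18 (SE 0.083, adjusted p = 0.224). Leaving out wild-type replicate 1 moved it to 0.31, and leaving out replicate 2 moved it to 0.06. Knockout and overexpression differed by -0.58 (SE 0.083, adjusted p = 0.000934), a call that held in all 16 alternatives. The knockout was also below the mutant (-0.42, adjusted p = 0.00595), which was lost without mutant replicate 1 (adjusted p = 0.07) or 2 (0.0841). Overexpression against mutant was 0.16 (adjusted p = 0.15), and 0.09 without overexpression replicate 2.

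Sparc (ENSMUSG00000018593, chr11:55394500-55423183, minus strand) encodes a secreted glycoprotein that binds collagen IV and is abundant in parietal endoderm. It had 193 and 183 CPM in the wild-type libraries, against 166 and 165 (knockout), 245 and 253 (mutant) and 277 and 279 (overexpression), with no overlap between any groups. Sparc rose 1.48-fold in overexpression (log2 change 0.56, SE 0.036, adjusted p = 3.60e-09, edgeR) and 1.33-fold in the mutant (0.41, SE 0.036, adjusted p = 1.80e-06), and fell 1.14-fold in the knockout (-0.19, SE 0.036, adjusted p = 0.000563). Its order of groups, knockout, wild type, mutant, overexpression, was also that of Hspg2, from which its centred profile differed by 0.113 (root mean square, log2).

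P4ha2 (ENSMUSG00000018906, chr11:54100095-54131665, plus strand) encodes an alpha subunit of the enzyme that hydroxylates prolines of collagen so that the triple helix is stable. It had 10.6 and 13.3 CPM in the wild-type libraries, against 5.54 and 5.61 (knockout), 11.7 and 15.1 (mutant) and 10.1 and 8.89 (overexpression). The knockout libraries were below all others, and wild type and mutant overlapped. P4ha2 fell 2.14-fold in the knockout (log2 change -1.10, SE 0.166, adjusted p = 0.00162, edgeR), in which Col4a1 and Col4a2, chains that the enzyme modifies, stood above wild type. The related subunit P4ha1 had a log2 change of -0.15 in the knockout (adjusted p = 0.0208), and P4hb, the shared beta subunit, one of 0.13 (adjusted p = 0.00338). P4ha2 in overexpression had a log2 change of -0.33 (SE 0.153, adjusted p = 0.115). That change was -0.48 without wild-type replicate 1, -0.33 without either mutant library and -0.16 without wild-type replicate 2. Knockout against overexpression, at -0.77 (adjusted p = 0.00708), missed the threshold without knockout replicate 1 (adjusted p = 0.0503). Overexpression was below the mutant (-0.49, adjusted p = 0.0304), a call lost without knockout replicate 1 (0.0615) or 2 (0.0605), mutant replicate 2 (-0.30, adjusted p = 0.0546) or overexpression replicate 1 (0.0583) or 2 (0.131). Among 10108 genes of at least 5 CPM, Lamb1 was the fourth closest in profile to P4ha2 (0.185).

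Other genes of the pathway were read from lists written from general knowledge. Of 7 tested laminin chains outside laminin-111, 3 were called in the knockout (2 higher, 1 lower), 2 in the mutant (1 higher, 1 lower) and 6 in overexpression (2 higher, 4 lower). These were 42.9%, 28.6% and 85.7% of the list, beside 44.8%, 15.5% and 54.8% of all tested genes, so the share in the knockout was near that of all genes. Their median log2 changes were 0.23, -0.18 and -0.75. Lama5 had a log2 change of 0.32 in overexpression, where Lama4 fell by 0.99, and Lama4 also fell by 1.05 in the knockout, from 1.20 and 1.51 to 0.699 and 0.607 CPM. Lamb2, a beta chain that can take the place of beta1, rose in the knockout (0.27), the mutant (0.24) and overexpression (0.13, adjusted p = 0.0154), the last not without wild-type replicate 2 (0.13, adjusted p = 0.0575) or overexpression replicate 2 (0.11, adjusted p = 0.108). The count of 2 in the mutant was 1 without wild-type replicate 1 or mutant replicate 2.

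Of 20 other basement membrane components, 12 were called in the knockout (6 higher, 6 lower), 9 in the mutant (3 higher, 6 lower) and 14 in overexpression (4 higher, 10 lower), with median log2 changes of 0.03, -0.26 and -0.49. These were 60%, 45% and 70% of the list, beside 44.8%, 15.5% and 54.8% of all tested genes. Col18a1, the collagen that gives rise to endostatin, was the highest of them at 689 and 658 CPM in wild type and fell in the knockout (log2 change -0.38) and overexpression (-0.94). Fn1, fibronectin, fell by 0.61 in the knockout, and Agrn, the proteoglycan agrin, rose by 0.36 in overexpression. Frem1 and Fras1, which act together at the epidermal basement membrane, both fell in overexpression (-2.44 and -1.78), and Frem1 rose in the knockout (1.70), from 2.61 and 2.20 to 7.86 and 7.77 CPM.

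Of 30 genes of collagen hydroxylation, folding, crosslinking and export, 16 were called in the knockout (10 higher, 6 lower), 4 in the mutant (2 higher, 2 lower) and 23 in overexpression (10 higher, 13 lower), with medians of 0.06, 0.01 and -0.02. These were 53.3%, 13.3% and 76.7% of the list, so in the knockout and the mutant the shares were near the 44.8% and 15.5% of all tested genes, and in overexpression the share stood beside 54.8%. Serpinh1, the collagen chaperone HSP47, fell in overexpression (log2 change -0.50), whereas Colgalt1, Loxl3 and P3h3 of the same list stood above wild type there. Their means were 168.9, 4.243 and 2.765 CPM in overexpression against 120.5, 1.324 and 1.441 in wild type. Pcolce, an enhancer of procollagen processing, fell in the knockout (-0.20) and rose in the mutant (0.36) and overexpression (0.50), although 2.93% of its exon length is shared with Fbxo24 on the same strand. Pxdn, the peroxidase that crosslinks collagen IV, rose in the knockout (0.28) and fell in the mutant (-0.39) and overexpression (-0.51).

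Of 24 receptor and adaptor genes, 14 were called in the knockout (8 higher, 6 lower), 9 in the mutant (6 higher, 3 lower) and 18 in overexpression (9 higher, 9 lower), with medians of 0.03, -0.05 and 0.02. These were 58.3%, 37.5% and 75% of the list, beside 44.8%, 15.5% and 54.8% of all tested genes. The count of 14 was 9 without knockout replicate 1. Itga6, the alpha6 chain of the main laminin-binding integrin of these cells, had 203 and 206 CPM in the wild-type libraries, against 259 and 259 (knockout), 270 and 267 (mutant) and 474 and 465 (overexpression). It rose in all 3 lines, most in overexpression (log2 change 1.20). Its partner Itgb1 fell in the knockout (-0.20) and overexpression (-0.37). Among 19 proteases and inhibitors 13, 10 and 13 were called in the 3 comparisons (6, 2 and 7 of them higher; medians -0.07, -0.20 and 0.04), which is 68.4%, 52.6% and 68.4% of them, and Timp3, an inhibitor that binds the matrix, rose in the knockout (0.86) and fell in the mutant (-1.18) and overexpression (-2.18).

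Markers of the cell types that make basement membrane in the early embryo moved with some of these results. The summed level of 12 primitive endoderm markers, the 10 genes not among them, was 128 and 139 CPM (wild type), 44.1 and 45.9 (knockout), 141 and 167 (mutant) and 67.7 and 53.1 (overexpression). The order was thus the order of Lamb1 and, by group means, of P4ha2, knockout and overexpression low and mutant high. It was not that of Lama1 or Sparc, which were high in overexpression. Mutant replicate 1 (141 CPM) was barely above wild-type replicate 2 (139 CPM), and 7 of the 12 markers were not called in the mutant. Lrp2 made up most of the sum in wild type (80.2 and 83.8 CPM) and in the mutant (76.1 and 88.4 CPM), and overlapped between these groups. In the knockout 10 of the 12 fell, beside 20.7% of all tested genes, and Foxa2 rose (to 17.8 and 18 CPM), beside 24.1%. The median log2 change of the 12 there was -2.21. Gata4, a transcription factor of this lineage, stood at 7.99 and 7.97 CPM in wild type and 0.652 and 0.765 in the knockout. In the mutant 4 rose (Gata4, Gata6, Pdgfra and Sox7) and Foxa2 fell, beside 8.02% and 7.5% of all tested genes. In overexpression 7 fell and Sox7 rose, beside 27.1% and 27.7% of all tested genes. In bulk RNA, fewer cells of a type and less RNA per cell cannot be told apart, and the part of such cells in the results was not tested. In the mutant, replicate 2 was above replicate 1 in this sum and, by 0.17 to 0.68 on the log2 scale, in Lama1, Lamb1, Col4a1, Col4a2 and P4ha2.

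Parietal endoderm markers went another way, at 172 and 169 CPM (wild type), 190 and 190 (knockout), 102 and 115 (mutant) and 122 and 118 (overexpression), as the sum of 12 genes. Collagen IV also had the knockout above and overexpression below wild type, but the mutant, lowest in this sum, was not lowest for collagen IV. Within the sum, Tfpi stood at 33.3 and 33.8 CPM in wild type and 65.5 and 66.8 in the knockout. Krt8, Krt18 and Fabp3 stood below wild type in the knockout. None of the 12 rose in the mutant or in overexpression, beside 8.02% and 27.7% of all tested genes. Of the 12, 8 fell in overexpression, beside 27.1% of all tested genes. In the knockout 6 rose and 3 fell, beside 24.1% and 20.7% of all tested genes. Their median log2 changes were 0.50 (knockout), -0.26 (mutant) and -0.76 (overexpression), and their part in the result was not tested. The 13 fibroblast markers, some of which are matrix genes, summed to 15.16 to 15.98 CPM (wild type), 24.3 to 25.6 (knockout), 14.5 to 15.1 (mutant) and 17.7 to 19.8 (overexpression). Of 9 tested, 6 rose and 1 fell in the knockout, beside 24.1% and 20.7% of all tested genes. Dcn and Lum, too low to be tested, were at 0 to 0.0265 CPM in all 8 libraries. Endothelial markers, 8 genes of which Emcn was at 0 in all libraries, summed to 49.9 to 60.9 CPM, of which Pecam1 and Eng, also transcribed in embryonic stem cells, made up most. Of the 8 embryonic stem cell markers, 7 (knockout), 6 (mutant) and 6 (overexpression) were called higher than wild type, and 0 lower. The shares of all tested genes called higher were 24.1%, 8.02% and 27.7%. Median log2 changes of these markers were 0.39, 0.155 and 0.224. With only the 2 groups compared, Pou5f1 and Nanog did not pass for the mutant (adjusted p = 0.1675 and 0.1202, edgeR).

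**Figure D4:**
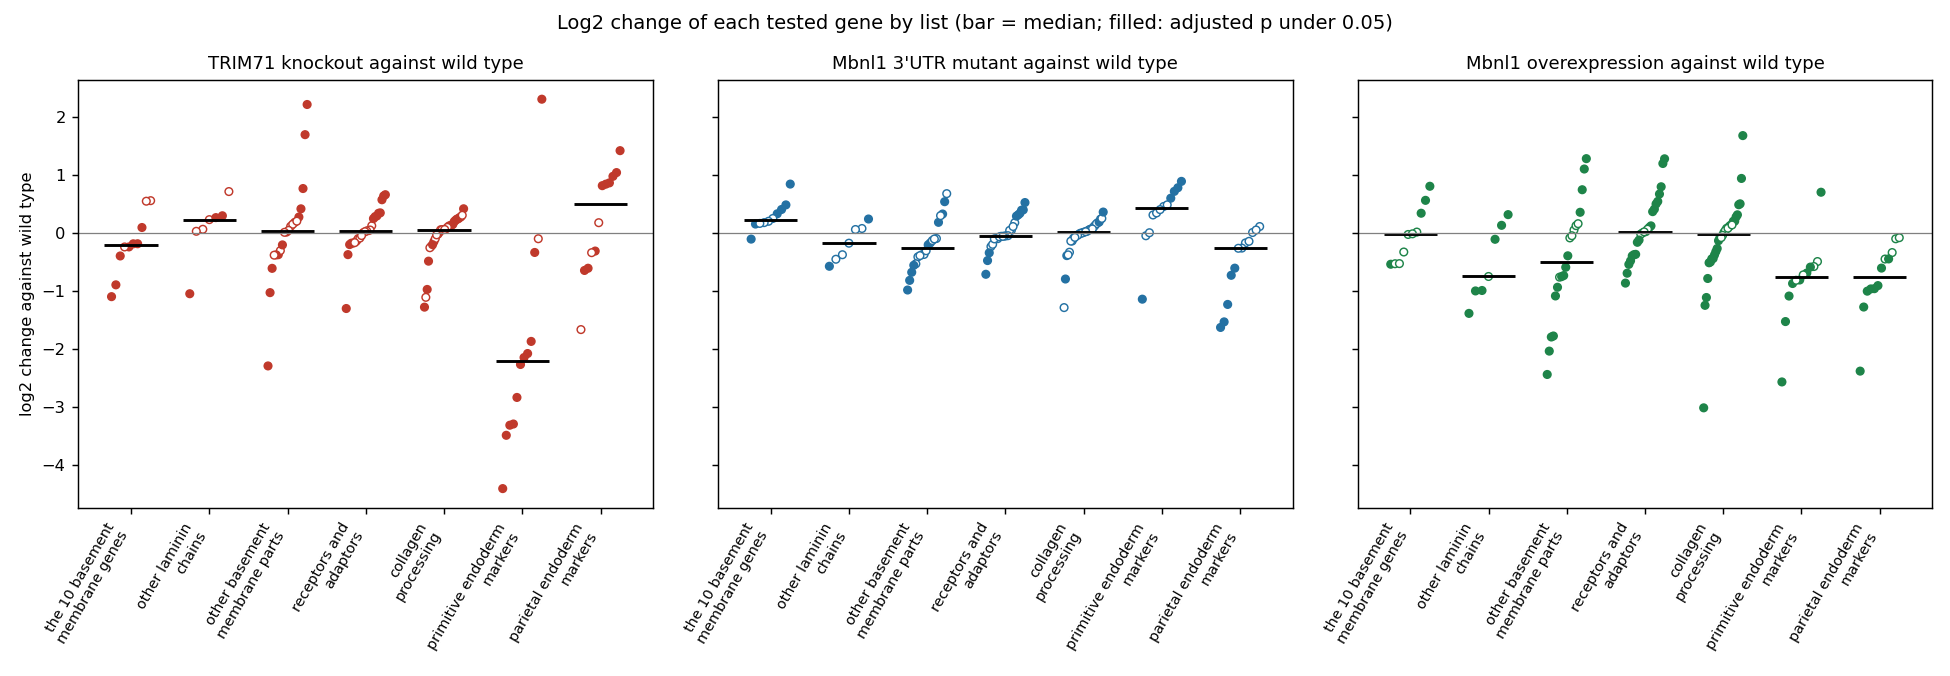
Log2 change against wild type of every tested gene of 7 lists in the 3 altered lines; the bar is the median of the list and filled points passed an adjusted p of 0.05. In the knockout the primitive endoderm markers have a median of -2.21, whereas the 10 basement membrane genes have a median of -0.21.

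Genes outside the pathway with a similar course were sought by the same root mean square difference, among 9744 tested genes of at least 5 CPM with a name of their own. Closest to the mean of the 3 laminin-111 chains were Glb1l (0.081), Mylpf (0.105), Akr1b8, Pros1 (both 0.106), F2r (0.115), Nab1 (0.118), Pou4f1 (0.119) and Atf3 (0.124), where the median gene differed by 0.395. Pros1, for example, had means of 89.8 (wild type), 63.5 (knockout), 112 (mutant) and 85.5 CPM (overexpression). The chains themselves differed by 0.484 (Lama1 and Lamb1), 0.383 (Lama1 and Lamc1) and 0.291 (Lamb1 and Lamc1). A gene close to their mean therefore need not follow each chain. Closest to the mean of Col4a1 and Col4a2 were Mid1ip1 (0.169), Serpinb6a (0.177), Ocln (0.180), Irs1 (0.189), Lrig1 (0.194), Vgll4 (0.198), Glul and Igf2bp3 (both 0.200), where the median gene differed by 0.442. None of these came near the 0.045 between Col4a1 and Col4a2. Glul, glutamine synthetase, had means of 1030 (wild type), 1450 (knockout), 1090 (mutant) and 697 CPM (overexpression).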

How the data were processed

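For every library the authors deposited a table of read counts by gene, which are whole numbers and not normalized. Per the labels' protocols, libraries were stranded total RNA sequenced as 75 nt paired-end reads, and per the submitters' processing notes STAR 2.5.0 and mm10 were used. Which annotation release and strand setting the counting used is not given in the sources used here. Identifiers were matched without version suffix to GENCODE M21 (42462 of 43346). Genes were kept by filterByExpr (minimum count 10, minimum total 15), which left 18055. edgeR 4.0.16 in R 4.3.3 fitted 1 robust quasi-likelihood model to all 4 groups with TMM scaling and 4 residual degrees of freedom, and SE was taken from the log2 change and its F statistic. A count of 3 equals 0.0335 to 0.0398 CPM. The procedure was also run on simulated counts with large changes in far fewer genes than were called here. That run does not check the small changes reported. DESeq2 1.42.0 was an alternative. Differences between replicates correlated at -0.034 to 0.06 between groups, so no shared effect of the replicate number was seen. Whether libraries of the same number were prepared together is not known. The 10 genes and the lists were chosen with earlier results of these data known. Genes named from a list were taken from its 6 highest in level and up to 4 others with the largest called change, with a mean of at least 1 CPM. P4ha1, Dcn, Lum and Emcn were added after their values were seen. Not all genes that met this rule are named, and no rule fixed which of them are.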

Additional observations from a re-analysis of the deposited data

How the results depend on the processing

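The 10 genes in 6 comparisons gave 60 values, 40 of them called. Over 16 alternatives, of which the earlier quasi-likelihood method of edgeR was chosen after seeing the data, the 640 values of called results kept their direction, and 588 stayed past the threshold while 52 did not. Of 320 values of results not called, 39 passed and 10 changed sign, none of them past the threshold. With library size only these were Nid1 (0.0289) and Nid2 (0.0399) in overexpression and Lama1 (0.0309) for overexpression against mutant. The other 7 came from leaving out 1 library. In the mutant, leaving out replicate 2 or replicate 1 gave -0.077 or 0.5194 for Col4a1, -0.1757 or 0.5032 for Col4a2 and -0.0237 or 0.3352 for P4ha2, the lowest and highest values for each, and Lama1 for overexpression against mutant ranged from -0.14 without mutant replicate 1 to 0.0731 without replicate 2. In overexpression Lamc1 ranged from -0.0047 to 0.0487 (without overexpression replicate 2 or 1), Nid1 from -0.0624 to 0.0146 (without wild-type replicate 2 or 1) and Nid2 from -0.0339 to 0.0182 (without overexpression replicate 2 or 1). The cause was not tested. With libraries left out one at a time, the number of the 10 genes called was 6 to 9 in the knockout, 4 to 6 in the mutant, 4 to 6 in overexpression, 6 to 8 for knockout against mutant, 4 to 9 for overexpression against mutant and 6 to 10 for knockout against overexpression (6 without knockout replicate 1). Under the other settings these counts stayed within 1.5 times. A group left with 1 library took its spread from the remaining groups. A replicate block, although the counts showed no pairing by number, gave 7899 calls over all genes in the knockout against 8092 without it, 2615 against 2802 in the mutant and 9766 against 9903 in overexpression. It ended the calls of Nid1 in the knockout (adjusted p = 0.0551) and Nid2 in the mutant (0.0614). Without wild-type replicate 1 the number of all genes called in the mutant fell from 2802 to 1768. The 2 calls of other laminin chains in the mutant were 1 with DESeq2.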
